A study of Mus musculus with 6 samples.

Results

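The genes described here were 40 genes of autophagy and of the lysosome, taken by symbol from the 24054 genes of the count table. They comprise 20 genes of the autophagy machinery, 19 genes of lysosomal membrane proteins, enzymes and their partners, and Tfeb, a transcription factor that activates genes of both groups. All 40 were found in the table and all 40 passed the filter on low values. The rule for choosing them uses gene names alone, and the list was drawn up with earlier results of these data known. Polyadenylated RNA was sequenced from 3 MitoPark mice and 3 littermate controls, untreated and aged 16 to 17 weeks by the labels. The tissue is brain by the labels and the substantia nigra (SN) by the study's methods. MitoParks carry Cre at 1 allele of the dopamine transporter gene and both floxed alleles of Tfam (Dat+/Cre: TFAM LoxP/LoxP), so that Tfam, which encodes mitochondrial transcription factor A, is deleted only in cells that express the transporter. By the study's methods the controls also carry a floxed allele, without Cre (TFAM+/LoxP: Dat+/+). The labels give the controls as C57BL/6 and the MitoParks as transgenic animals derived from that strain. The dissected tissue also contains glia and neurons in which Tfam is intact, and fewer cells of a type and less RNA per cell cannot be told apart in it.

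In autophagy, the Ulk1 kinase complex starts a membrane that grows around cytoplasm or a damaged organelle, members of the Atg8 family are coupled to a lipid of that membrane, and the closed vesicle fuses with a lysosome. Lysosomes are acidic and break down the delivered protein, glycogen and lipid with cathepsins, glycosidases and sphingolipid enzymes. Neurons depend on this clearance for damaged mitochondria, which makes the pathway a subject of Parkinson's disease research.

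Levels are given as CPM, the estimated reads of a gene scaled to a common library size after normalization by the trimmed mean of M-values (TMM). The libraries held between 8140777 and 10528602 expected counts, and the 40 genes took between 0.743% and 0.832% of each. No gene of them had fewer than 67 counts in any mouse. Tfam had 40.3, 44.4 and 45.5 CPM in littermate controls 1, 2 and 3 and 32.7, 33.1 and 33.2 CPM in MitoParks 1, 2 and 3, so the groups did not overlap (log2 fold change -0.40, standard error 0.11, unadjusted p = 0.00565 and Benjamini-Hochberg adjusted p = 0.999, edgeR). It was counted over the whole tissue, in which most cells keep the gene. Summed markers of dopaminergic neurons were 529, 623 and 1647 CPM in the controls and 345, 653 and 630 CPM in the MitoParks, so that control 3 stood apart. Summed oligodendrocyte markers ranged from 6697 to 17760 CPM within the controls and from 9203 to 15110 CPM within the MitoParks.

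The promoters of several members hold the letters CACGTG, the core of the motif through which Tfeb and its relatives bind lysosomal genes, and 6 of them are shown: the 4 with the longer motif TCACGTGA (Ctsa, Ctsd, Mcoln1 and Atg3), Lamp1 for its repeated copies, and Gaa as the member that varied most between mice. They come from RefSeq windows of 250 bases before to 50 bases after each gene start (GRCm38.p6), which were present for 33 of the 40 genes, and each stretch of 80 bases lies before the start. They are Lamp1 at chr8:13159081-13159160 (plus strand), Ctsa at chr2:164833693-164833772 (plus strand), Ctsd at chr7:142387883-142387962 (minus strand), Mcoln1 at chr8:3500428-3500507 (plus strand), Gaa at chr11:119267786-119267865 (plus strand) and Atg3 at chr16:45158713-45158792 (plus strand). Capitals mark CACGTG, or TCACGTGA where the flanking letters are present too.
Lamp1: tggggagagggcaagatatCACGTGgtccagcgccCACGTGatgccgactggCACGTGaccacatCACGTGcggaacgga
Ctsa: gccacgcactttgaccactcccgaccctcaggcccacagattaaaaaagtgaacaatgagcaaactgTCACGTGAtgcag
Ctsd: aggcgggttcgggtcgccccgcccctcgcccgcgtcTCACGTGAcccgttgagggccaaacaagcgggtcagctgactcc
Mcoln1: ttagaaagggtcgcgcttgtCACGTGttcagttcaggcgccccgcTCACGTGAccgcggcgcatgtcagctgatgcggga
Gaa: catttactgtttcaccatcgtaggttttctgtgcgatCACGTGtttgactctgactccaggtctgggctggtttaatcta
Atg3: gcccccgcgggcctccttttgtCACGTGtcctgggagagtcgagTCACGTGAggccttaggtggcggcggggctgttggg

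The stretch of Lamp1, a major protein of the lysosomal membrane, holds 4 copies of CACGTG, and those of Mcoln1, a lysosomal calcium channel, and Atg3, a coupling enzyme of autophagy, hold 2 each. CACGTG reads the same on both strands and is contained in TCACGTGA, so a match to the longer motif is also a match to the shorter. Among the lysosome genes with a window, 7 of 16 (43.8%) held CACGTG: Ctsa, Ctsd, Ctsl, Gaa, Glb1, Lamp1 and Mcoln1. Among the autophagy genes, 4 of 16 (25.0%) held it: Atg3, Atg5, Atg7 and Atg14. The share was 11.4% over 10904 tested genes with a window, and 8.09% over all 27025 genes with one. TCACGTGA was found in 3 of 16 lysosome genes (Ctsa, Ctsd and Mcoln1) and 1 of 16 autophagy genes (Atg3), against 2.04% of the tested genes. A longer form, with G before and C after TCACGTGA, was also searched. It was found in 0 of 16 lysosome genes and 0 of 16 autophagy genes, against 0.725% of the tested genes. At so low a share, 0 of 16 does not set the members apart from other genes. All matches describe the letters in the windows and carry no measure of binding.

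No difference between MitoParks and littermate controls was detected in any of the 40 genes. The call asked for an unadjusted p below 0.05 from edgeR's quasi-likelihood test and a fold change above 1.5, and it was met by 0 of 40 genes, against 0.577% of the 14568 genes tested. The p alone was below 0.05 for 0 of 40, against 1.11% of all genes, and DESeq2's Wald test, limma-voom and edgeR's exact and likelihood ratio tests also gave 0. In no member did all mice of one group lie above all mice of the other, which was the case for 4.71% of all genes. Unadjusted p-values ran from 0.309 to 0.995, and the exact permutation test of 3 mice against 3, which cannot give less than 0.1, gave 0.2 or more for each of the 40. Of the 14568 genes tested, 0 passed an adjusted p of 0.05 in edgeR's quasi-likelihood test, where 161 had an unadjusted p below 0.05, and 1 gene passed in edgeR's exact test and in its likelihood ratio test.

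The data also bound how large a difference could have been missed in the RNA of the whole dissected tissue. They set no such bound for the dopaminergic neurons alone, which are a part of it. The fold changes of MitoPark over control lay between 0.903 and 1.10, and 33 of the 40 log2 fold changes were 0.1 or less in size. Each 95% interval, taken singly, lay inside a 1.5-fold difference in either direction for 40 of 40 genes, against 66.5% of all genes tested. The lowest bound of any interval was a fold change of 0.698, for Scarb2, and the highest was 1.43, for Tfeb. With Gaa, these were the 3 members with the widest intervals. When a mouse was left out, the intervals of 15 to 18 of the 19 lysosome genes and of all 20 autophagy genes lay inside 1.5-fold. The members were more abundant than most genes, with 36 of 40 above the median level of 26.4 CPM, and their median standard error was 0.118 on the log2 scale, against 0.157 for all genes.

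**Figure D1:**
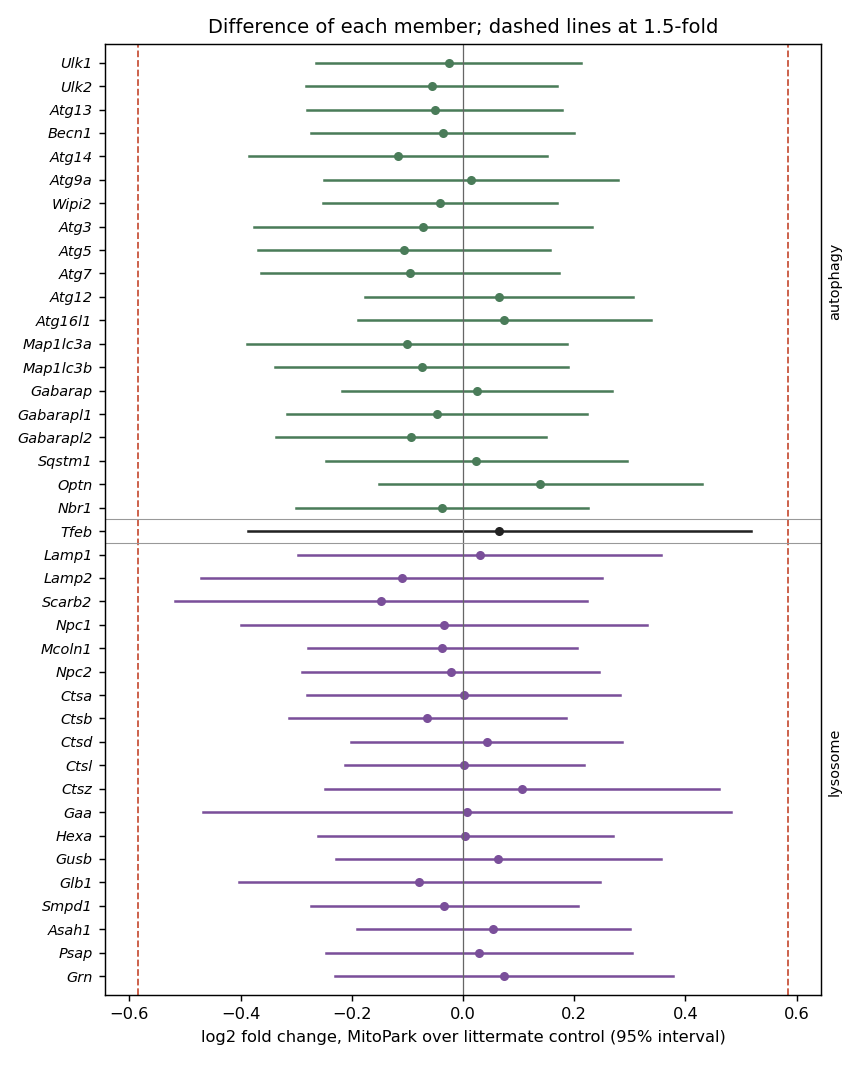
Log2 fold change of each of the 40 genes, MitoPark over littermate control, with its 95% interval from edgeR's quasi-likelihood fit (3 mice per group). All 40 intervals include 0 and lie between the dashed lines, which mark a 1.5-fold difference, and those of Tfeb, Gaa and Scarb2 are among the widest.

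The 20 autophagy genes comprised 6 with a positive and 14 with a negative log2 fold change, with a median of -0.04 beside -0.0047 over all genes tested. Their summed level was 2883, 3110 and 2942 CPM in controls 1, 2 and 3 and 3074, 2907 and 2780 CPM in MitoParks 1, 2 and 3. The ranges of these sums overlapped. For 18 of the 20, the difference between the group means was smaller than the larger of the within-group standard deviations (SD).

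The initiation genes were Ulk1 and Ulk2, kinases that start autophagosome formation, and Atg13, their adaptor, and their log2 fold changes were between -0.06 and -0.03. Becn1 and Atg14 belong to the lipid kinase complex that marks the site of the growing membrane. Atg14 had the lowest log2 fold change among the autophagy genes. It was present at 24.8, 24.1 and 22.6 CPM in the controls and at 21.0, 23.8 and 21.2 CPM in the MitoParks. The ranges overlapped through MitoPark 2, and the log2 fold change was -0.12 (standard error 0.12, 95% interval -0.38 to 0.15, unadjusted p = 0.352, edgeR). Atg9a, which supplies membrane on vesicles, and Wipi2, which links the lipid mark to the coupling enzymes, had log2 fold changes of 0.014 and -0.04. Wipi2 was also the most even member, with the highest mouse only 1.09 times the lowest.

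The conjugation genes encode the enzymes that attach Atg8 family proteins to lipid. Atg5, which is joined to Atg12 in that machinery, was present at 26.4, 27.6 and 28.5 CPM in the controls and at 23.5, 27.3 and 25.9 CPM in the MitoParks, a log2 fold change of -0.11 (standard error 0.12, 95% interval -0.37 to 0.16). Its partner Atg12 lay on the other side of 0, with 59.7, 66.6 and 61.3 CPM in the controls and 65.6, 69.7 and 61.0 CPM in the MitoParks (log2 fold change 0.07, standard error 0.11, 95% interval -0.18 to 0.31). Atg16l1, which binds the pair and places it on the membrane, had 50.6, 46.9 and 41.5 CPM in the controls and 51.1, 47.5 and 47.7 CPM in the MitoParks (log2 fold change 0.07, standard error 0.12, 95% interval -0.19 to 0.34). The groups overlapped for all 3 components of this complex. Atg3 and Atg7, the transfer and the activating enzyme, had log2 fold changes of -0.07 (95% interval -0.38 to 0.23) and -0.10 (95% interval -0.36 to 0.17).

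The Atg8 family provides the proteins that coat the autophagosome and bind cargo receptors. Gabarapl1 was the most abundant autophagy gene per length, with 353 ± 23.6 CPM per kilobase in controls and 342 ± 31.8 in MitoParks (SD, n = 3) over its longest annotated transcript. Its level was 618, 693 and 619 CPM in the controls and 681, 623 and 565 CPM in the MitoParks. The highest and the lowest values of the 6 mice thus fell in different groups without separating them. On the per-kilobase scale Gabarapl2 followed in controls at 131 ± 10.8, then Gabarap at 112 ± 12.2, Map1lc3a at 106 ± 9.02 and Map1lc3b at 68.7 ± 8.93 (SD, n = 3). Gabarapl2, Gabarap and Map1lc3a overlapped as neighbours in that order, and with the shortest annotated transcript Map1lc3b moved above all 3 of them.

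Map1lc3a, 1 of the LC3 genes whose products are the usual markers of autophagosomes, was present at 113, 130 and 112 CPM in the controls and at 127, 95.1 and 108 CPM in the MitoParks. MitoPark 1 lay inside the control range and the other two below it (log2 fold change -0.10, standard error 0.13, 95% interval -0.39 to 0.19). Map1lc3b had 156, 184 and 202 CPM in the controls and 168, 177 and 170 CPM in the MitoParks. All 3 MitoParks thus lay inside the range of the controls (log2 fold change -0.07, standard error 0.12, 95% interval -0.34 to 0.19). The 3 MitoParks also lay inside the control range for Gabarap, which had 138, 170 and 146 CPM in the controls and 154, 153 and 155 CPM in the MitoParks. Gabarapl2 had 206, 240 and 212 CPM in the controls and 219, 206 and 192 CPM in the MitoParks. Its log2 fold change was -0.09 (standard error 0.11, 95% interval -0.34 to 0.15), and only MitoPark 3 lay below the controls.

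The cargo receptors tie ubiquitinated cargo to the Atg8 proteins. Optn, which encodes optineurin, a receptor for damaged mitochondria, had the highest log2 fold change of the autophagy genes. It was present at 34.0, 31.9 and 38.5 CPM in the controls and at 35.0, 42.5 and 37.4 CPM in the MitoParks. Only MitoPark 2 exceeded the highest control, and the log2 fold change was 0.14 (standard error 0.13, 95% interval -0.15 to 0.43, unadjusted p = 0.309, edgeR), with an exact permutation p of 0.3. Sqstm1, a receptor that is itself degraded by autophagy, and Nbr1, which resembles it, had log2 fold changes of 0.02 and -0.04.

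**Figure D2:**
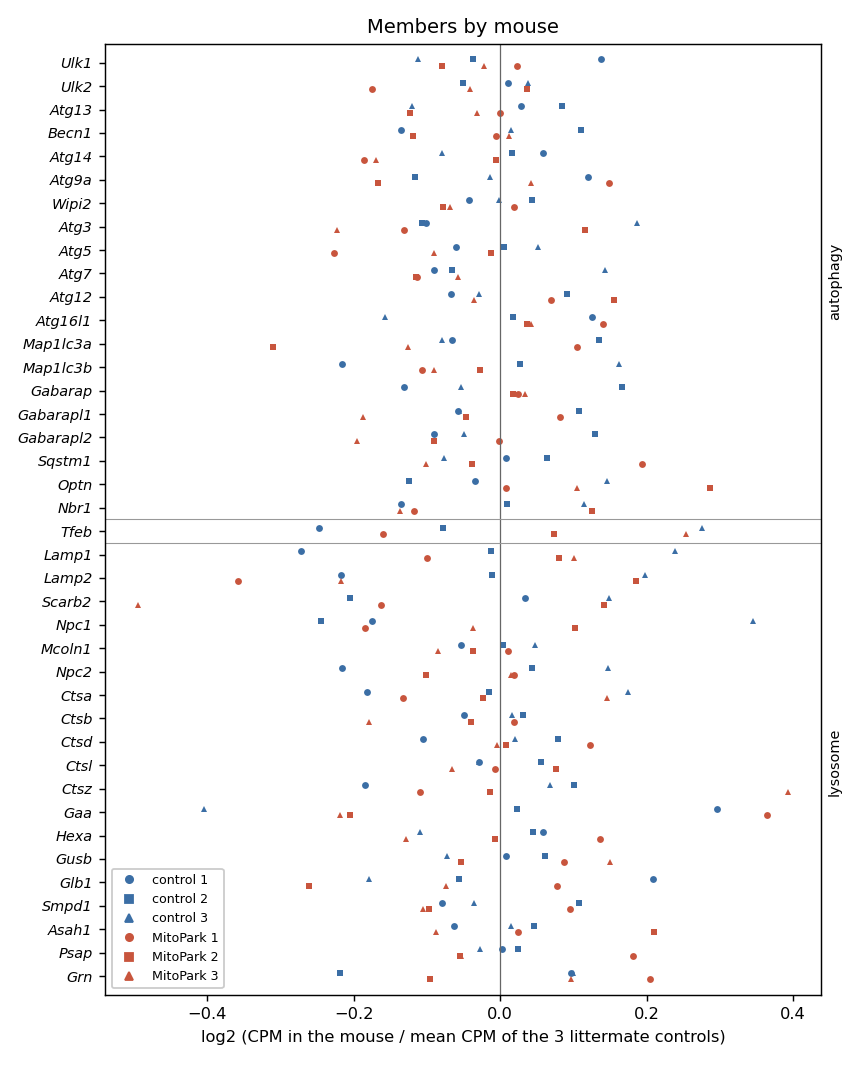
Level of each of the 40 genes in each mouse, as the log2 ratio of its CPM to the mean CPM of the 3 littermate controls. Blue points are controls and red points are MitoParks, with a circle, square and triangle for mice 1, 2 and 3, and in every gene the colours overlap.

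Tfeb was the least abundant member per length, at 3.896 ± 0.739 CPM per kilobase in controls (SD, n = 3). It was present at 7.68, 8.64 and 11.0 CPM in the controls and at 8.17, 9.60 and 10.9 CPM in the MitoParks. Each MitoPark lay inside the range of the controls, and the log2 fold change was 0.07 (standard error 0.20, 95% interval -0.39 to 0.52, unadjusted p = 0.752, edgeR). The spread between mice, 1.44-fold from the lowest to the highest, was wider than the difference between the groups. The activity of Tfeb depends on its entry into the nucleus, which RNA does not measure. The 11 members with CACGTG in their promoter window had a median log2 fold change of -0.04, from -0.12 to 0.04, and the 4 with TCACGTGA had a median of -0.02, from -0.07 to 0.04.

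The 19 lysosome genes comprised 11 with a positive and 8 with a negative log2 fold change and had a median of 0.0026. Their summed level was 4762, 4823 and 4719 CPM in controls 1, 2 and 3 and 5169, 4652 and 4519 CPM in MitoParks 1, 2 and 3. MitoPark 1 lay above the controls and the other two lay below them. In all 19 the difference between the group means was smaller than the larger within-group SD.

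Among the membrane proteins, Scarb2, the receptor that carries glucocerebrosidase to the lysosome, had the lowest log2 fold change of the 40 members with all 6 mice. It was present at 93.5, 79.3 and 101 CPM in the controls and at 81.7, 101 and 64.9 CPM in the MitoParks. MitoPark 3 alone lay below the controls, and the log2 fold change was -0.15 (standard error 0.16, 95% interval -0.52 to 0.22, unadjusted p = 0.393, edgeR). It was -0.0016 without that mouse and -0.31 without MitoPark 2. Lamp2, a membrane glycoprotein needed for fusion with autophagosomes, had 98.1, 113 and 131 CPM in the controls and 89.0, 130 and 98.1 CPM in the MitoParks, a log2 fold change of -0.11 (standard error 0.16, 95% interval -0.47 to 0.25). The other membrane genes were Lamp1, Mcoln1 and the cholesterol transporter Npc1, with log2 fold changes between -0.04 and 0.03. The sterol-binding protein Npc2, which hands cholesterol to Npc1, had a log2 fold change of -0.02.

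The cathepsins are the proteases of the lysosome. Ctsz, a carboxypeptidase, had the highest log2 fold change of the lysosome genes, and it was present at 26.5, 32.3 and 31.6 CPM in the controls and at 27.9, 29.8 and 39.6 CPM in the MitoParks. MitoPark 3 alone exceeded the controls. The log2 fold change of 0.11 (standard error 0.16, 95% interval -0.25 to 0.46) became -0.06 without that mouse. Ctsd, an aspartic protease, had a log2 fold change of 0.04 (95% interval -0.20 to 0.29), and the cysteine protease Ctsb had -0.06 (95% interval -0.31 to 0.18). Ctsl, a further cysteine protease, and Ctsa, which protects other lysosomal enzymes, had the nearest levels, with 123 ± 4.20 CPM in controls and 123 ± 6.15 CPM in MitoParks for Ctsl and 87.6 ± 10.8 and 87.7 ± 8.58 CPM for Ctsa (SD, n = 3).

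The glycosidases cut sugars from larger molecules, glycogen and glycolipids among them. Gusb, which encodes beta-glucuronidase, had 15.9, 16.5 and 15.1 CPM in the controls and 16.8, 15.3 and 17.6 CPM in the MitoParks, a log2 fold change of 0.06 (standard error 0.13, 95% interval -0.23 to 0.36). Glb1, which encodes beta-galactosidase, had 37.1, 30.9 and 28.3 CPM in the controls and 33.9, 26.8 and 30.5 CPM in the MitoParks, a log2 fold change of -0.08 (standard error 0.14, 95% interval -0.40 to 0.25). Both genes had overlapping groups. Gaa, which breaks down glycogen, is included for its spread, which was seen in the data, and had 942, 780 and 580 CPM in the controls and 988, 665 and 659 CPM in the MitoParks. Its highest mouse was 1.70 times its lowest, the widest spread of the 40, while its mean was 767 ± 182 CPM in controls and 771 ± 188 CPM in MitoParks (SD, n = 3). Hexa, a hexosaminidase subunit, had 50.9 ± 3.22 CPM in controls and 51.1 ± 4.69 CPM in MitoParks (SD, n = 3).

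Psap, the precursor of the activator proteins that present sphingolipids to their enzymes, was the most abundant of the 40 genes per length, with 568 ± 10.2 CPM per kilobase in controls and 579 ± 56.0 in MitoParks (SD, n = 3). It was present at 1511, 1534 and 1480 CPM in the controls and at 1711, 1452 and 1453 CPM in the MitoParks. MitoPark 1 lay above the controls and the other two below them, and the log2 fold change was 0.03 (standard error 0.12, 95% interval -0.25 to 0.30). Smpd1, the acid sphingomyelinase, and Asah1, the acid ceramidase, had log2 fold changes of -0.03 and 0.05. Grn, which encodes progranulin, a secreted protein that lysosomes take up and process, had 49.8, 39.99 and 49.8 CPM in the controls and 53.6, 43.6 and 49.8 CPM in the MitoParks. Its groups overlapped, and the log2 fold change was 0.07 (standard error 0.14, 95% interval -0.23 to 0.38).

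**Figure D3:**
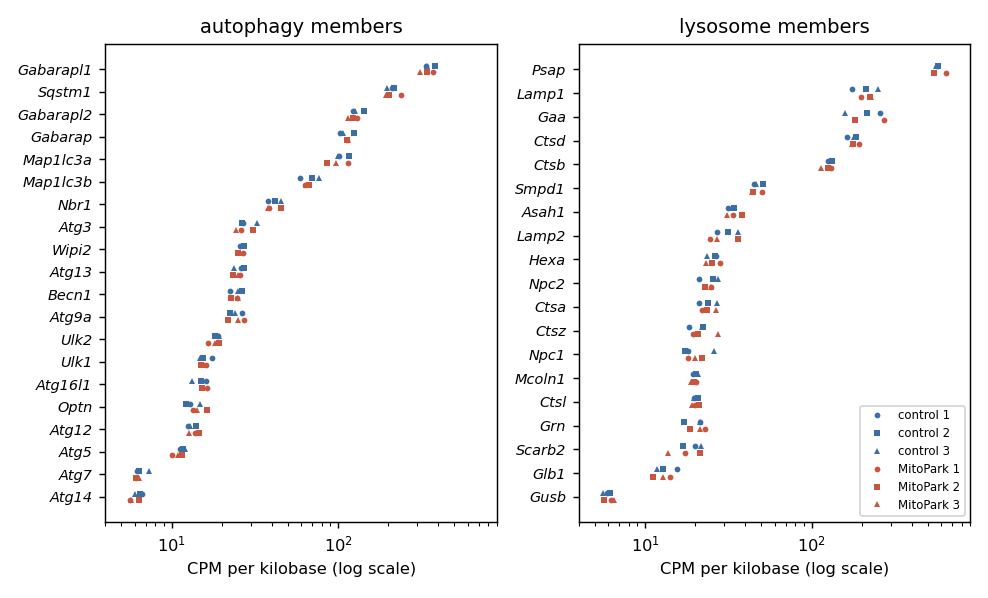
CPM per kilobase of the longest annotated transcript for the 39 autophagy and lysosome genes on a log axis, each mouse as a point, with controls in blue and MitoParks in red. Psap and Gabarapl1 lead their groups at 568 and 353 in controls, Gusb and Atg14 are lowest at 5.89 and 6.40, and the colours overlap at every gene.

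Levels per length spanned from Tfeb at 3.896 to Psap at 568 CPM per kilobase in controls. Below Psap and Gabarapl1 came Lamp1 at 213 ± 37.5, Gaa at 211 ± 49.99 and Sqstm1 at 209 ± 10.2 CPM per kilobase in controls (SD, n = 3), which did not differ beyond their spread. With the shortest annotated transcript in place of the longest, Gabarapl1 ranked above Psap. Reads of 10 of the 40 genes, Psap, Sqstm1, Gaa and Map1lc3b among them, were in part shared with other genes in the authors' counting, as shown by values that were not whole, so their levels carry that uncertainty as well.

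The spread between mice was also compared with the markers of oligodendrocytes, which form myelin. Over the 6 mice, 3 of the 40 genes (7.5%) correlated positively and 3 (7.5%) negatively with the summed level of 6 oligodendrocyte markers at an exact permutation p below 0.05, against 6.8% and 6.49% of all genes tested, so the shares were near the background, and 0 members passed after adjustment over all genes. The 3 positive ones were Tfeb (r = 0.981, exact permutation p = 0.00139, rho = 1.0, p = 0.00278, adjusted p = 0.186), Lamp1 (r = 0.97, exact permutation p = 0.00417, rho = 1.0, p = 0.00278, adjusted p = 0.211) and Ctsa (r = 0.954, exact permutation p = 0.00278, rho = 0.943, p = 0.0167, adjusted p = 0.195). The 3 negative ones were Gaa (r = -0.902, exact permutation p = 0.0125, rho = -0.943, p = 0.0167, adjusted p = 0.264), Hexa (r = -0.841, exact permutation p = 0.0417, rho = -0.886, p = 0.0333, adjusted p = 0.349) and Ulk1 (r = -0.846, exact permutation p = 0.0306, rho = -0.829, p = 0.0583, adjusted p = 0.322). Without the 2 mice farthest from the median of the marker sum, controls 1 and 3, r was 0.991 for Tfeb, 0.89 for Lamp1, 0.888 for Ctsa, -0.814 for Gaa and -0.954 for Hexa, and it was -0.342 for Ulk1, whose relation rests on those mice. These genes were chosen over the same mice, and so few mice give large values readily. In the same subset r was -0.999 for Mcoln1 and -0.992 for Gabarapl1, which were not among the 6. The subset therefore gives no separate support for a relation. The comparison with this list was chosen after the data were seen, and a group of 3 mice is too small for a value of its own. Whether the relation comes from the share of oligodendrocytes in the dissected tissue was not tested. With the marker sum as a further term in the model, 0 of 40 genes had an unadjusted p below 0.05 in edgeR's test, as without it.

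**Figure D4:**
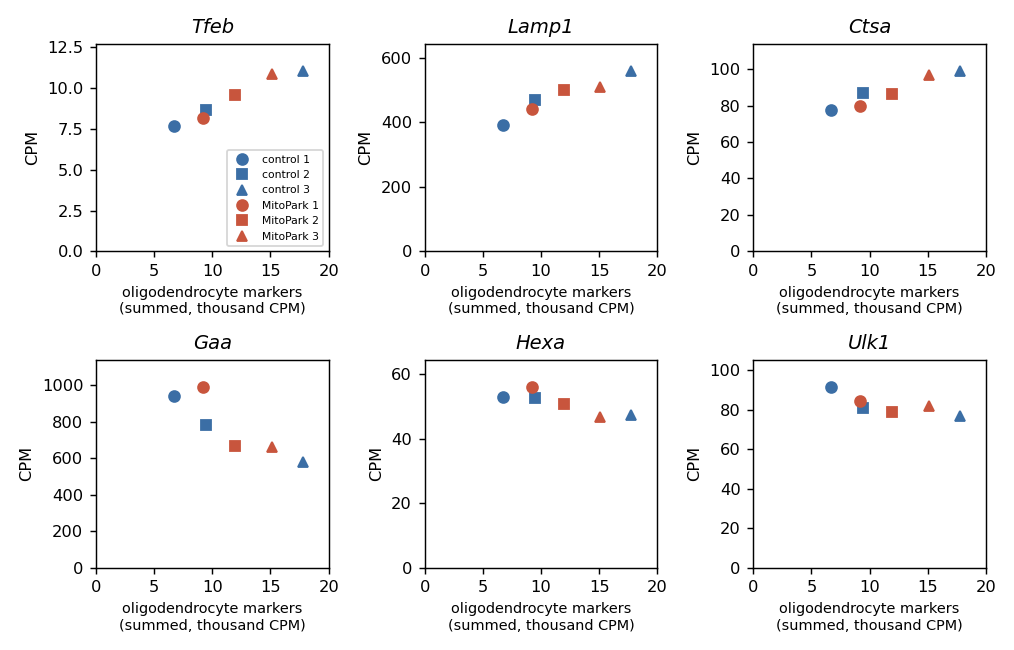
Level in CPM of 6 members against the summed CPM of 6 oligodendrocyte markers, 1 point per mouse (controls blue, MitoParks red, circle, square and triangle for mice 1, 2 and 3). The 6 members were chosen for an exact permutation p below 0.05 over these mice. Their share was near that of all genes tested, and 0 passed after adjustment. Tfeb, Lamp1 and Ctsa lie higher in mice with more marker signal, and Gaa and Hexa lower, while the relation of Ulk1 rests on controls 1 and 3.

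Beyond the 40 members, 116 genes of the same pathways were examined: 31 other autophagy genes, 45 other lysosome genes, 18 genes of the proton pump that acidifies lysosomes (V-ATPase) and 22 genes of mTORC1 and of the Tfeb relatives, which control the pathway. All 116 were tested, 54 had a positive and 62 a negative log2 fold change, and 110 of 116 intervals lay inside a 1.5-fold difference. None met the call, against 0.577% of all genes tested. Against 1.11% of all genes tested, 1 of 116 had an unadjusted p below 0.05 in edgeR's test. This was Cd68, a lysosomal membrane protein of macrophages and microglia, with 3.79, 3.32 and 5.38 CPM in the controls and 6.34, 6.27 and 6.12 CPM in the MitoParks (log2 fold change 0.58, standard error 0.24, unadjusted p = 0.0367 and Benjamini-Hochberg adjusted p = 0.999, edgeR). Every MitoPark lay above every control, and the p was above 0.05 in DESeq2's Wald test and when control 1, control 2, MitoPark 1, MitoPark 2 or MitoPark 3 was left out.

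Groups did not overlap in 9 of the 116 genes (7.76%), against 4.71% of all genes tested. In 5 of the 45 other lysosome genes (11.1%) every MitoPark was above every control, against 2.43% of all genes. They were Cd68, the cathepsin genes Ctsc, Ctsh and Ctss, and the sialic acid transporter gene Slc17a5. Cd68 was named by the rule that took genes of these lists with an unadjusted p below 0.05, so it too was picked by its value. All but Cd68 were named, outside that rule, after their values were seen. The log2 fold changes of the other four were 0.44 for Ctsc, 0.23 for Ctsh, 0.24 for Ctss and 0.27 for Slc17a5, with unadjusted p-values of 0.0761, 0.153, 0.0954 and 0.0508 (edgeR). Ctsc, Ctsh and Ctss are, like Cd68, abundant in microglia and macrophages, and the summed level of 10 microglia markers was 215, 244 and 277 CPM in the controls and 282, 258 and 299 CPM in the MitoParks. Those marker sums overlapped, 1 of the 10 markers (C1qa) had an unadjusted p below 0.05, and the part of microglia in the 5 genes was not tested.

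In the other autophagy genes, Atg4a, which trims Atg8 proteins, was the only gene whose groups did not overlap (log2 fold change 0.40, unadjusted p = 0.0766, edgeR). Among the mTORC1 and Tfeb-related genes the groups did not overlap for Mtor, Lamtor3 and Lamtor4, lower in MitoParks, against 2.28% of all genes. Their log2 fold changes were small, at -0.05, -0.11 and -0.06, with unadjusted p-values of 0.574, 0.348 and 0.618 (edgeR), and these 3 genes and Atg4a were likewise named after their values were seen. Tfe3 and Mitf, relatives of Tfeb that bind the same motif, had log2 fold changes of 0.03 and 0.13. Of the 18 V-ATPase genes, 17 had a negative log2 fold change, where 51.4% of all genes did, and the median was -0.05 with no p below 0.05. This count was between 10 and 16 of 18 when a mouse was left out, and it was 10 without MitoPark 3.

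**Figure D5:**
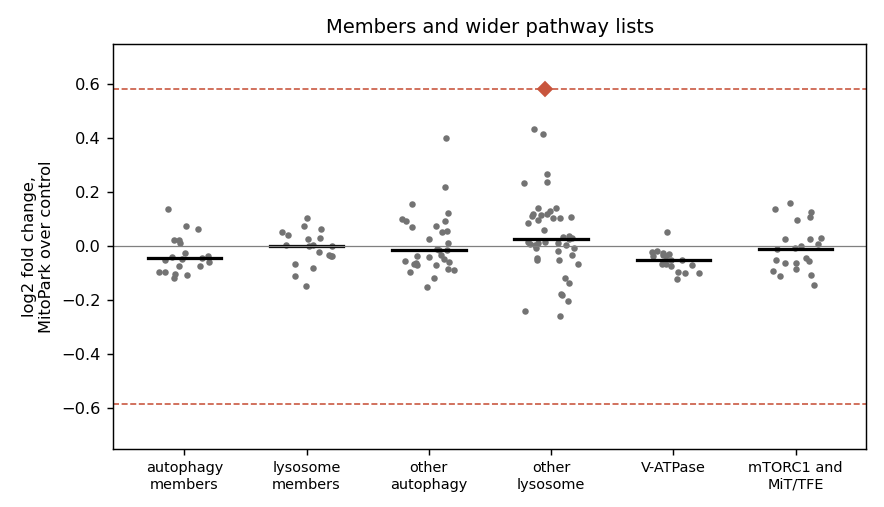
Log2 fold change of MitoPark over littermate control for the 39 autophagy and lysosome members and the 116 further pathway genes, 1 point per gene, with the median of each list as a line and dashed lines at a 1.5-fold difference. The red diamond is Cd68, at 0.58, and the other genes lie between -0.26 and 0.44.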

How the data were processed

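RNA-seq of the SN of 3 MitoParks and 3 littermate controls was analysed, with groups taken from the sample labels. Reads were mapped with Bowtie2 2.1.0 and RSEM 1.2.15, by the submitters' processing notes, and the authors deposited expected counts per gene symbol without normalization. Those notes name a human genome build for these mouse samples, the study's methods give UCSC transcripts as the target of this alignment, and a mouse build for it is not given in the sources used here. A RefSeq annotation build is named only for an alignment that gave RPKM values, which the table does not hold. Between 11.91% and 14.11% of the expected counts per mouse were not whole numbers, and 0 columns belonged to no mapped sample.

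After rounding, the 14568 genes whose mean CPM exceeded 1 in a group were tested. For this, edgeR 4.0.16 in R 4.3.3 was used for TMM normalization and a quasi-likelihood test of the 2 groups. The call (unadjusted p under 0.05, more than 1.5-fold) follows the paragraph of the study's methods on edgeR, which does not say whether that p is adjusted, and a further paragraph gives an adjusted p below 0.05 for that other alignment. The Benjamini-Hochberg adjustment covered every tested gene. The 95% intervals use the standard error from the quasi-likelihood fit. Exact permutation tests were two-sided, on log2(CPM + 0.1) for the groups and on 720 orders of the mice for relations to the markers.

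Values in every mouse are given for the 3 highest and 3 lowest log2 fold changes of the autophagy and of the lysosome genes, Tfeb, the Atg8 family, and the most abundant member per kilobase of each group. Transcript lengths are from GENCODE M21. The members, the wider lists and the marker lists were chosen with earlier results of these data known. Alternatives were other tests (edgeR's exact, likelihood ratio and robust forms, DESeq2 1.42.0, limma-voom with limma 3.58.1), normalizations (RLE, upper quartile, total counts), filters on low values, expected counts without rounding, a block for the replicate number, and fits that omit 1 mouse. A marker term was added after the data were seen. Replicate libraries differed by more than sampling noise (the lowest chi-square was 10 per degree of freedom). The p-values and intervals of edgeR's quasi-likelihood fit rest on a spread between these mice that is in part pooled over genes. They do not measure each gene's own spread alone, so a gene with very even groups can keep a wide interval. The procedure was run on simulated counts drawn with the dispersion fitted to these data. Those counts held no differences in tissue composition between mice, so the run cannot show how the intervals hold for these mice. No molecular identifiers were used, so reads are not independent molecules.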

Additional observations from a re-analysis of the deposited data

How the results depend on the processing

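Under the 20 alternatives, 0 of the 40 genes was called and 0 had an unadjusted p below 0.05. Of 800 member values, 56 had the opposite sign, and the smallest p was 0.0786. With all 6 mice the largest log2 fold change was 0.163 in size, and without 1 mouse it was 0.313. The interval lay inside 1.5-fold for 20 of 20 autophagy genes whichever mouse was left out, but for 15 to 18 of 19 lysosome genes, so that bound rests on all 6 mice. Npc1 changed from -0.03 to 0.17 without control 3 and ranged from -0.14 to 0.17 when each mouse was left out in turn. Ctsz changed from 0.11 to -0.0622 without MitoPark 3 and ranged from -0.0622 to 0.21. Scarb2 ranged from -0.31 (without MitoPark 2) to -0.0016 (without MitoPark 3), and Gaa from -0.20 (without MitoPark 1) to 0.19 (without control 1). The cause was not tested. Of the other lysosome genes, 1 had an unadjusted p below 0.05. This became 0 with DESeq2's Wald test, 2 with RLE, upper quartile or total count normalization (Cd68 and Slc17a5), and 0 to 3 when a mouse was left out (3, namely Ids, Ctsc and Galns, without MitoPark 2). Of the other autophagy genes, 0 became 2 without MitoPark 2 (Rb1cc1 and Tmem41b), and the range was 0 to 2. Over all genes, 161 had an unadjusted p below 0.05 in the main fit, and 97 to 657 when a mouse was left out. The 657 were found without MitoPark 2, so the rise in that fit was not particular to these lists. Mice share replicate numbers across groups. Same-numbered mice deviated together with correlations of 0.307, -0.0738 and 0.244 over all genes tested, and of 0.674, -0.309 and 0.284 over the 40 members. Of the 6 mice, 4 correlated best with their own number. With 3 mice per group, these values cannot settle whether the numbers pair the mice. With the replicate block, 2 other lysosome genes (Ctss and Cd68) had a p below 0.05, the medians of the autophagy and lysosome members were -0.05 and 0.002, and the calls over all genes rose from 84 to 126, with 1 gene past an adjusted p of 0.05. They were 176 without a filter on low values and 62 to 219 when a mouse was left out (62 without MitoPark 3, 219 without control 3).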
